A study of Chlamydomonas reinhardtii with 12 samples.

Results

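Of 17744 gene identifiers counted in Chlamydomonas reinhardtii, 71 made up at least 1000 of every 1000000 counts (CPM) in each of 6 parental libraries from dark cultures. The level is the count divided by the library total, and 73 identifiers met this rule. Cre02.g120150 and Cre06.g282800 were left out by name, and Cre02.g120100, also to be left out, did not meet the rule because it fell to 439 CPM in WT 2. The 71 are called the abundant transcripts here. A further 189 identifiers reached 1000 CPM in at least 1 parental library but not in all, so the 71 are the part of the abundant pool that was present in every parental culture. The 71 were chosen by their levels in the 6 parental libraries, so differences among those libraries are given as a description, with no test. Comparisons of PDSKO with parental libraries were tested, and their parental side is not independent of the choice.

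The cells were grown in liquid for 4 weeks in darkness at 25 °C in acetate medium, and transcript 3' ends were counted by CEL-Seq. The parental line is labelled CC-3403 and gave 6 WT libraries, from cultures that received 10 µg/mL arginine. A further 6 libraries, named PDSKO, are of its derivatives without functional phytoene desaturase, made by Cas9 editing and kept in medium with no added arginine. The PDSKO cells were also passed through a cell sorter, which was meant to remove transformants that had the plasmid but no knockout, and revertants. PDSKO 1 to 4 are of line E10, PDSKO 5 of line A2 and PDSKO 6 of line D2, so A2 and D2 have 1 library each and arginine and sorting cannot be told apart from genotype. Titles of WT 1 to 3 begin with X3404VE, which differs from the CC-3403 of the cell line label, and those of WT 4 to 6 with WT. The titles 2A and 2D of PDSKO 5 and 6 were read as lines A2 and D2. No label matches WT libraries to knockout lines: setting WT 1 to 3 with E10, and WT 4 to 6 with A2 and D2, is an inference from the style of the titles, and each such group is called a title set here. All samples are labelled vegetative cells. The WT samples are described as independent, but for the 4 libraries of E10 no label states whether the cultures were separate. The p-values reflect the scatter among these libraries, which may be technical.

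Chlamydomonas can live in darkness on acetate, which it respires, and it keeps making chlorophyll and photosynthetic proteins without light. Phytoene desaturase acts early in carotenoid synthesis, and cells without carotenoids survive only in darkness or very dim light. Neither the count table nor the reference gene table pairs any of the 71 identifiers with a gene name or product, so each is described by its identifier and its values. No identifier is given for the targeted gene in these sources either, and its count is not used here.

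Total counts ran from 1393032 to 35992976 in WT, from 6279 to 40429 in E10, and were 475103 in A2 and 36062 in D2. The abundant transcripts were countable in all of them: none of the 852 pairs of transcript and library had 0 counts, and 32 pairs had fewer than 10. Of these 32, 28 lay in PDSKO 2, the shallowest library, where 1 count stood for 159 CPM. The lowest count was the single read of Cre13.g570851 in that library, with a Poisson 95% interval of 4.03 to 887 CPM. Counting intervals cover counting error only.

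The abundant transcripts took between 23.9% of counts in WT 4 and 39.0% in WT 3 of the parental libraries, with a mean of 32.6 ± 6.63% (SD, n = 6). In E10 they took 29.9%, 25.3%, 35.2% and 34.2% of counts in PDSKO 1 to 4, with Wilson 95% intervals no wider than that of PDSKO 2 (24.3 to 26.4%). All 4 values lie within the WT range. D2 stood at 26.7% (26.3 to 27.2%), also within that range, whereas A2 stood at 56.7% (56.6 to 56.8%), above every other library. A single transcript, Cre07.g323800, took 43.3% of its counts. With that transcript left out of both the sum and the total, A2 stood at 23.7% and WT at 30.6 ± 6.14% (SD, n = 6), with WT 4 at 22.3%.

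**Figure D1:**
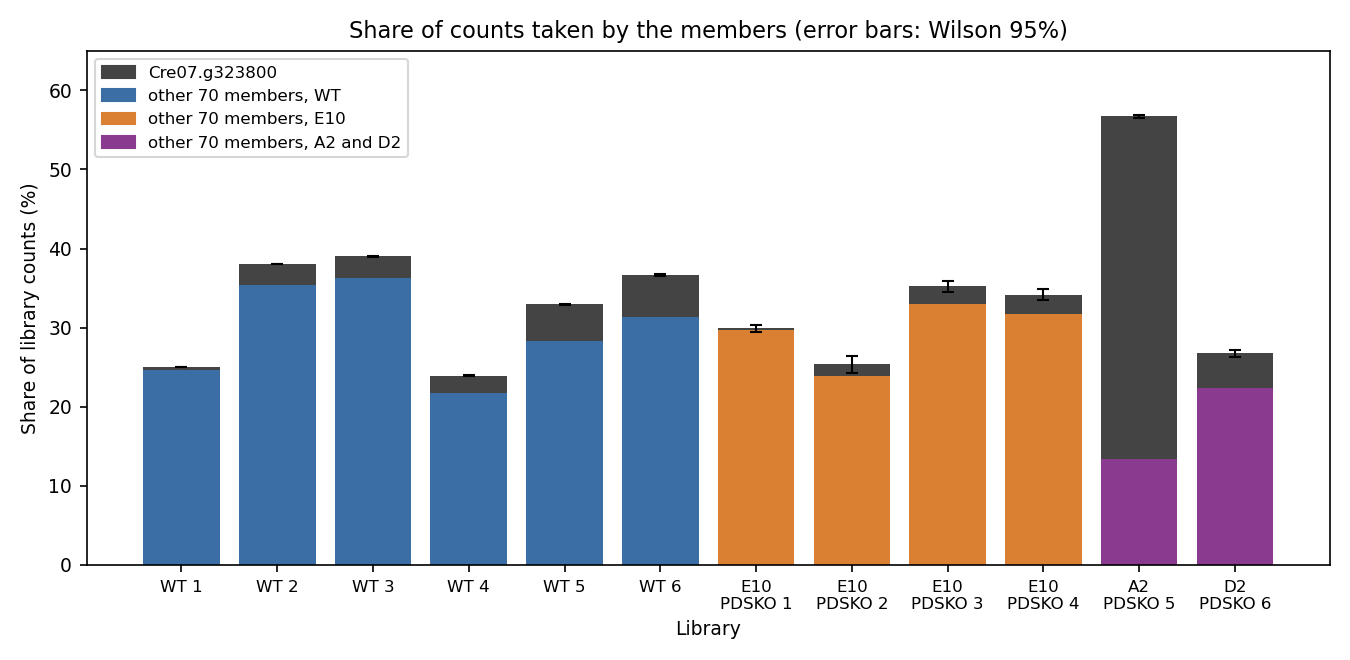
Summed counts of the 71 abundant transcripts as a percentage of the library total, with the part of Cre07.g323800 in dark grey and Wilson 95% intervals as error bars. A2 stands out at 56.7%, of which Cre07.g323800 is 43.3%.

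Within the parental cultures the abundant transcripts had median levels from 1212 to 27291 CPM, with a median over the 71 of 3038 CPM. Because reads come from transcript ends, a CPM is not divided by transcript length here, and the order of transcripts is a description only. The leading transcript was Cre07.g323800, at 3814, 27509 and 27072 CPM in WT 1 to 3 and at 21511, 45817 and 53282 CPM in WT 4 to 6. Only WT 1 was low for it. The next was Cre13.g579450, at 8861, 20282 and 22111 CPM in WT 1 to 3 and at 18279.6, 30141 and 33883 CPM in WT 4 to 6, again lowest in WT 1. Their ranges overlap, so their order does not hold in every library: in WT 1 the order of these 2 was reversed. Below them 6 transcripts had WT medians between 7618 and 10377 CPM: Cre12.g514500, Cre12.g494050, Cre08.g382500, Cre17.g720250, Cre01.g027000 and Cre04.g211800. Neighbours in this order differed by far less than their spread over libraries, as for Cre12.g514500 with 9480.2 ± 3299 CPM and Cre12.g494050 with 9333 ± 3126 CPM (SD, n = 6).

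The rule sets only a lower limit, and the transcripts differed in how even they were above it. The ratio of the highest to the lowest WT library ran from 1.64 to 13.97, with a median of 2.55, and was under 2 for 14 transcripts and over 5 for 7. The most even was Cre10.g466500, at 1803, 2959.6 and 2319 CPM in WT 1 to 3 and at 2005, 2060.5 and 1973 CPM in WT 4 to 6. Cre12.g498250, Cre06.g298650, Cre10.g417700 and Cre06.g278135 followed, with ratios from 1.72 to 1.76. At the other end stood Cre07.g323800 (13.97), Cre17.g702900 (7.71), Cre17.g720250 (7.21), Cre07.g349200 (5.82) and Cre06.g289550 (5.68). Cre17.g702900 stood at 8381 and 10567 CPM in WT 2 and WT 3 and between 1369.7 and 2927 CPM in the other 4, which do not overlap with them. Cre17.g720250 ran the opposite way, at 1707 and 1718 CPM in WT 2 and WT 3 and between 8122 and 12301 CPM in the other 4.

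Just inside the limit lay Cre03.g179800, Cre12.g532550 and Cre14.g630100, whose lowest WT libraries held 1011, 1014 and 1017 CPM. Just outside lay Cre03.g182551, Cre09.g387726 and Cre16.g659700, with lowest values of 985, 972 and 966 CPM. Cre03.g182551 had a WT median of 4553 CPM, and fell outside by its lowest library.

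In the order of the parental libraries, WT 2 and WT 3 often stood together, apart from the other 4. For 40 of the 71 both of these libraries were above the other 4, where 35.8% of the 4915 identifiers tested in all 12 libraries showed this. For 10 of the 71 both were below the other 4, against 11.9% of all. WT 2 and WT 3 had all 71 transcripts within 2-fold of each other, as did WT 5 and WT 6. WT 1 and WT 2, of the same title set, had 51 of 71 within 2-fold. The ranges of WT 1 to 3 and WT 4 to 6 did not overlap for 24 of the 71, beside 34.6% of all identifiers.

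PDSKO 1, 3 and 4 of E10 repeated this division, in samples that the rule did not use, and PDSKO 2 did so by correlation only. Over the 71 transcripts the log2 CPM of PDSKO 3 correlated at r = 0.96 with WT 3 and 0.94 with WT 2, but at 0.39 with WT 1 and 0.39 with WT 5. PDSKO 4 correlated at r = 0.93 with WT 3 and 0.91 with WT 2, and at 0.45 with WT 1. PDSKO 2 was also nearest to WT 3 by correlation (r = 0.77). By median absolute log2 difference, however, PDSKO 2 was nearest to WT 4 (0.76), beside 0.83 for WT 2 and 0.88 for WT 3. PDSKO 1 was nearest to WT 1 (r = 0.70) and stood at 0.40 with WT 2 and with WT 3. These correlations are across 71 transcripts of the same libraries, which are not independent replicates. In fold terms, all 71 transcripts of PDSKO 3 were within 2-fold of both WT 2 and WT 3, with a median absolute log2 difference from WT 2 of 0.24. Only 37 of 71 were within 2-fold between PDSKO 3 and PDSKO 1, which are libraries of the same knockout line.

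**Figure D2:**
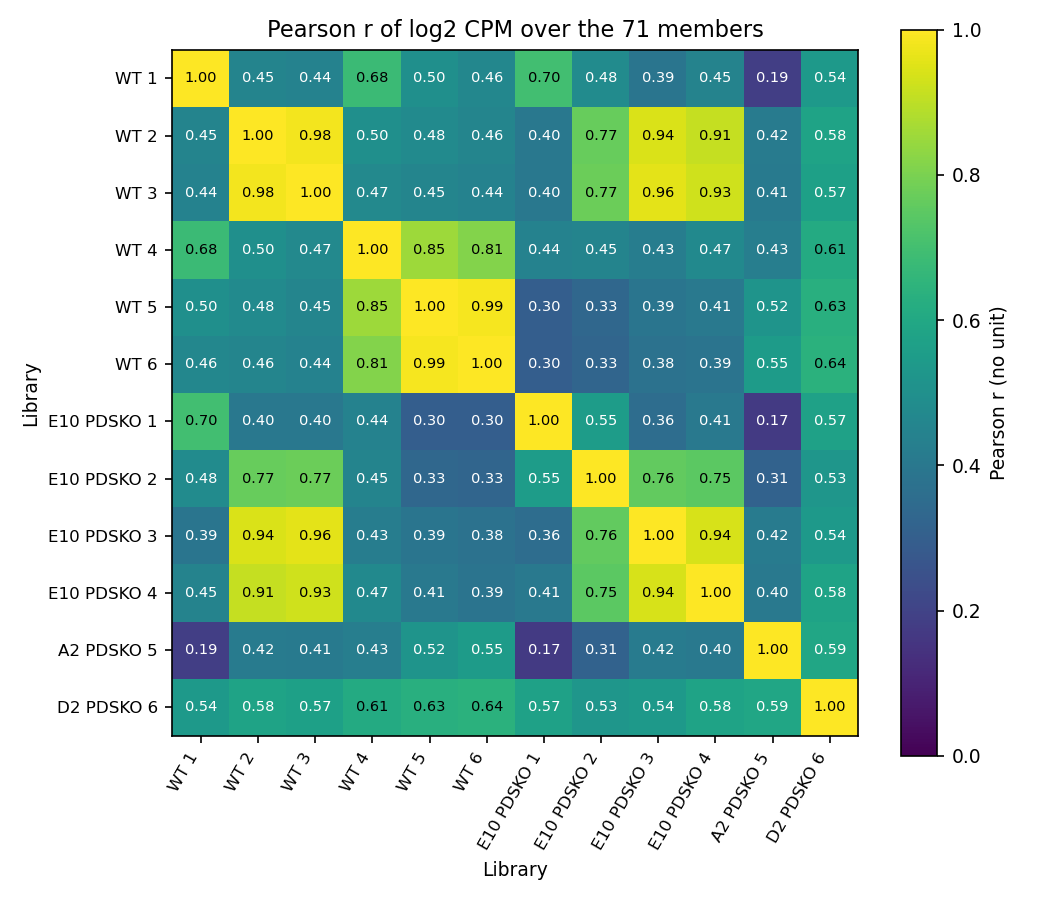
Pearson r of log2 CPM over the 71 abundant transcripts for each pair of the 12 libraries. PDSKO 3 and 4 form a block with WT 2 and 3 (r from 0.91 to 0.98), WT 5 and 6 form another (0.99), and A2 is at most 0.55 with any WT library.

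The differences were also set against counting error. The chi-square per degree of freedom over the 71 was 1.76 between PDSKO 3 and PDSKO 4, 3.56 between PDSKO 3 and WT 3, and 67.6 between PDSKO 3 and WT 6. A value of 1 is what counting error alone would give. The value also grows with the depth of both libraries, and the partners of PDSKO 3 here differ in depth, so the values are given as a description. For the 40 transcripts highest in WT 2 and WT 3, PDSKO 3 and 4 were both above PDSKO 1 in 28 and both below it in 8. Over all 71 they were above in 42 and below in 24. For the 21 neither highest nor lowest in WT 2 and WT 3, they were above in 13 and below in 8. For the 10 lowest in WT 2 and WT 3, PDSKO 3 and 4 were both below PDSKO 1 in 8 and both above it in 1. Between WT 1 and the mean of WT 2 and WT 3, 8 transcripts stood over 3-fold apart. All 8 lay on the same side between PDSKO 1 and the mean of PDSKO 3 and 4. Of all 71, 55 lay on the same side in both ratios, and no share over all identifiers was computed. For Cre07.g349200 the levels were 1053, 6132 and 5152 CPM in WT 1 to 3 and 445, 1115, 4529 and 3674 CPM in PDSKO 1 to 4, with 7 reads in PDSKO 2. For Cre17.g738300 they were 4298, 1121 and 1132 CPM in WT 1 to 3 and 4897, 1274, 939 and 735 CPM in PDSKO 1 to 4.

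The depth of these libraries belongs beside that likeness. PDSKO 1 held 0.134% as many counts as WT 1, and PDSKO 3 and 4 held 0.127% and 0.115% as many as WT 3. Samples were pooled after second-strand synthesis, per the labels' protocols. Carry-over of reads between pooled samples was not tested, so the E10 values are given as those of the libraries labelled E10.

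Against the WT libraries of their title set, the libraries labelled E10 had no abundant transcript that passed the test. edgeR called 0 of 71 at an adjusted p under 0.05, and 0% of the 449 identifiers tested in these 7 libraries were called. None of the 71 had an unadjusted p under 0.05 in edgeR, and DESeq2 also called 0, with 6 at an unadjusted p under 0.05. The median log2 fold change of the 71 was -0.03, beside -0.01 over all tested. All 4 E10 libraries lay below all of WT 1 to 3 for 2 transcripts and above them for 1, where 3.34% and 0.891% of all identifiers tested did so. The 3 smallest p-values belonged to Cre06.g257150, Cre06.g278135 and Cre12.g504200, with log2 fold changes of 1.31 ± 0.64, 0.70 ± 0.36 and 0.87 ± 0.46 (SE) and an edgeR adjusted p of 0.994 each. For Cre06.g257150 the value rests on PDSKO 1 at 7495 CPM, where PDSKO 2 to 4 had 3504, 2596 and 1776 CPM and WT 1 to 3 had 1517, 2245 and 2309 CPM. Without PDSKO 1 its log2 fold change was -0.88, with all tested identifiers at a median of -2.53. The fold changes are relative to scaling factors from 449 identifiers, and the libraries left out change how many are tested. Here too the WT levels chose the 71, so the WT side is not independent of the choice.

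Counted against the limit that chose them, 69 of the 71 still reached 1000 CPM in PDSKO 3, 67 in PDSKO 4, 65 in PDSKO 1 and 59 in PDSKO 2. In D2 59 did, and in A2 41. The rule fixes the count at 71 in WT, so it can only be lower elsewhere. Over all identifiers, 146 reached 1000 CPM in PDSKO 3, 148 in PDSKO 4, 172 in PDSKO 1 and 210 in PDSKO 2. In D2 187 of all identifiers did and in A2 76, beside 137 (WT 3) to 182 (WT 4) in WT. All 6 PDSKO libraries were at or above 1000 CPM for 33 of the 71, and a further 20 of the 71 missed it in 1 library. The highest floor belonged to Cre16.g666301, which never fell below the 5199 CPM of WT 4 and stood at 10191, 14174, 13146 and 13106 CPM in E10, 10678 in A2 and 9678 in D2. Cre08.g382500, Cre12.g494050, Cre13.g579450, Cre12.g529400, Cre07.g323800, Cre16.g682300 and Cre02.g106600 followed, none below 2070.4 CPM in any of the 12 libraries, and Cre10.g417700 tied with the last of these. In WT 4 to 6 Cre02.g106600 stood at 2763 ± 87.3 CPM (SD, n = 3), with 2509 CPM in A2 and 3299.9 CPM in D2.

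**Figure D3:**
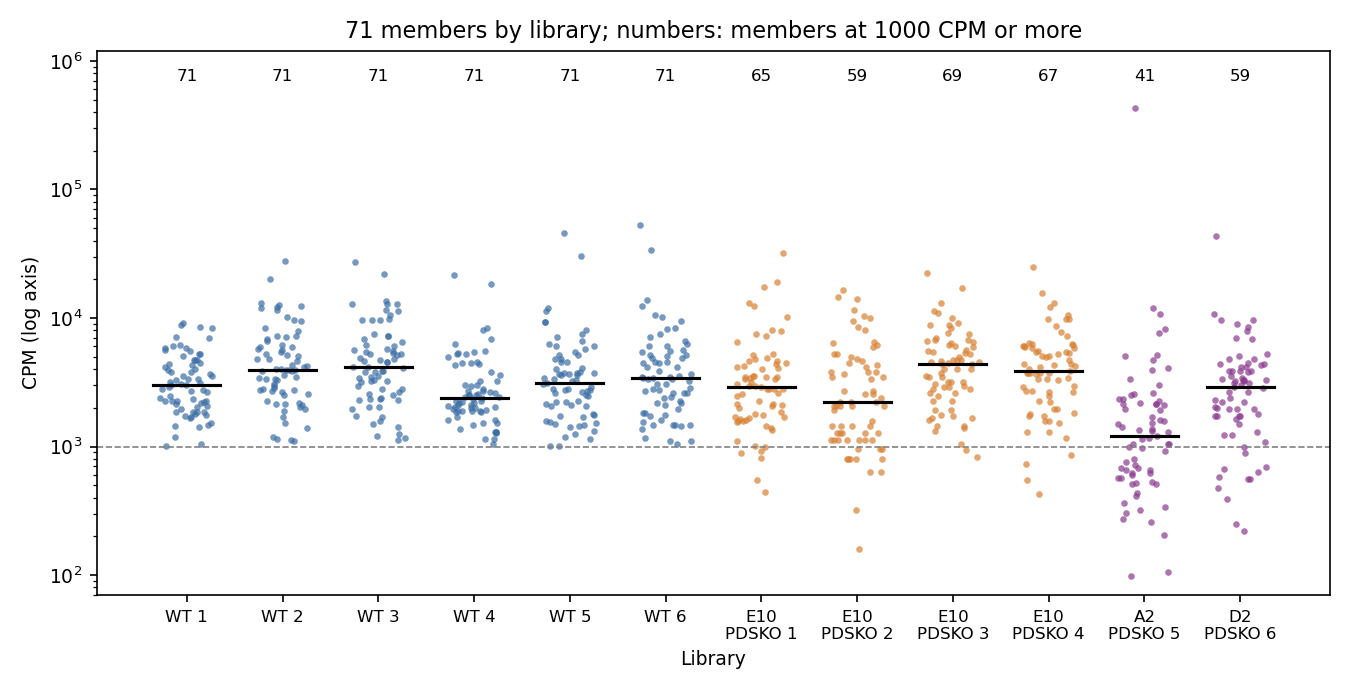
CPM (log axis) of the 71 abundant transcripts in each of the 12 libraries, with the median as a black bar and the 1000 CPM limit dashed. The number at 1000 CPM or more is 71 in each WT library by the rule, and 41 in A2, where 76 of all identifiers reached it.

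In A2 the set spread widely: levels ran from 98.9 to 432689 CPM with a median of 1199.7 CPM, against a median of 2884 CPM in D2. CPM in A2 is over a total of which Cre07.g323800 took 43.3%. A2 was the lowest of the 12 libraries for 39 of the 71 and the highest for 2. No share over all identifiers was computed, so these counts do not set the 71 apart from other transcripts. A2 was below all of WT 4 to 6 for 51 of the 71 and above them for 7. Of the 8042 identifiers tested in these 5 libraries, 54.2% were below and 28% above. D2 was below all of WT 4 to 6 for 26 and above them for 17, beside 70.5% and 21.3%. Both lines were below for 21 and above for 3, beside 41% and 7.57%. Many of the 8042 are low in count and D2 is shallow, so these percentages are of transcripts at other depths than the 71. With Cre07.g323800 left out of the totals, the number of the other 70 at 1000 CPM rose from 40 to 54 in A2 and from 58 to 59 in D2.

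The next test set A2 and D2 together against WT 4 to 6. Cre07.g323800 was higher and 10 of the 71 were lower at an edgeR adjusted p under 0.05, where 10.9% of the 8042 identifiers were called, 3.38% higher and 7.49% lower. The median log2 fold change was -1.10 over the 71 and -0.92 over all tested. WT levels chose the 71, so the WT side of this comparison is not independent of the choice.

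The lowest of the called transcripts was Cre17.g732000, which stood at 2999.9, 3094 and 3502 CPM in WT 4 to 6, at 98.9 CPM in A2 and at 250 CPM in D2, the last from 9 reads (Poisson 95% interval 114 to 474 CPM). Both knockout libraries lay below the WT ones (edgeR adjusted p = 0.00378), by -4.88 ± 0.83 (SE) in log2 fold change. In E10 it had 1583, 1115, 1326 and 1286 CPM, within the 1143 to 1864 CPM of WT 1 to 3 apart from PDSKO 2.

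Cre05.g233950 stood at 3782, 5771 and 6299.9 CPM in WT 4 to 6, at 652 CPM in A2 and at 555 CPM in D2. The groups did not overlap, and edgeR gave -3.47 ± 0.78 (log2 fold change ± SE) at an adjusted p of 0.0156. It was also low in E10, at 1014, 637, 828.5 and 429 CPM beside 1701, 1404 and 1251 CPM in WT 1 to 3. It was 1 of the 2 transcripts with all E10 libraries below all of WT 1 to 3. The 637 CPM of PDSKO 2 came from 4 reads, with a Poisson interval of 174 to 1631 CPM that reaches above WT 2 and WT 3. The 429 CPM of PDSKO 4 came from 7 reads (172 to 883 CPM). In E10 against WT 1 to 3 it was not called (log2 fold change -0.78 ± 0.56 SE, edgeR adjusted p = 0.994).

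Cre08.g380250 fell from 8377, 6066 and 6614 CPM to 684 CPM in A2 and 1303 CPM in D2 (log2 fold change -3.38 ± 0.68 SE, edgeR adjusted p = 0.00950). Cre13.g579450, the transcript of second rank in WT, fell from 18279.6, 30141 and 33883 CPM to 3361 CPM in A2 and 10676 CPM in D2 (-2.74 ± 0.57, edgeR adjusted p = 0.0117). In both cases the groups did not overlap and A2 was the lower of the 2 lines. The other 6 that fell were Cre17.g720250, Cre06.g261000, Cre07.g349200, Cre01.g010900, Cre13.g570851 and Cre17.g702900, with log2 fold changes from -3.18 to -2.65 and edgeR adjusted p from 0.0186 to 0.0463. Of these, Cre06.g261000, Cre01.g010900 and Cre13.g570851 fall outside the rule for naming transcripts and were named after their values were seen.

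Cre07.g323800 was the 1 transcript called higher, and it was so in A2 alone. It stood at 432689 CPM in A2, 10.8 times the 40203 ± 16613 CPM (SD, n = 3) of WT 4 to 6, whereas D2 at 43813 CPM lay inside the WT range of 21511 to 53282 CPM. edgeR gave 2.57 ± 0.74 (log2 fold change ± SE) at an adjusted p of 0.0367. Without A2 the log2 fold change of Cre07.g323800 was -0.99, with all tested identifiers at a median of -7.58. The transcript whose level over the 12 libraries most resembled it was Cre03.g179800, with a root mean squared log2 difference of 1.02 after centring, among 121 identifiers with 5 or more counts in every library. Cre03.g179800 stood at 11945 CPM in A2, against 2361, 3333 and 3404.1 CPM in WT 4 to 6, but at 887 CPM in D2.

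The calls of this comparison rested on few libraries. Of the 71, 0 were called when WT 4 was left out, 1 when WT 5 was and 2 when WT 6 was, but 18 when A2 and 34 when D2 was. Over all identifiers tested the calls moved too, to 13 of 5606, 71 of 6018, 127 of 7925, 828 of 10831 and 2486 of 10989 in the same order. Where a single knockout library is left, the fit assumes that it varies as the WT libraries do. RLE scaling called 7 and library totals alone 3, with the median of all tested at -0.42 and -0.74.

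**Figure D4:**
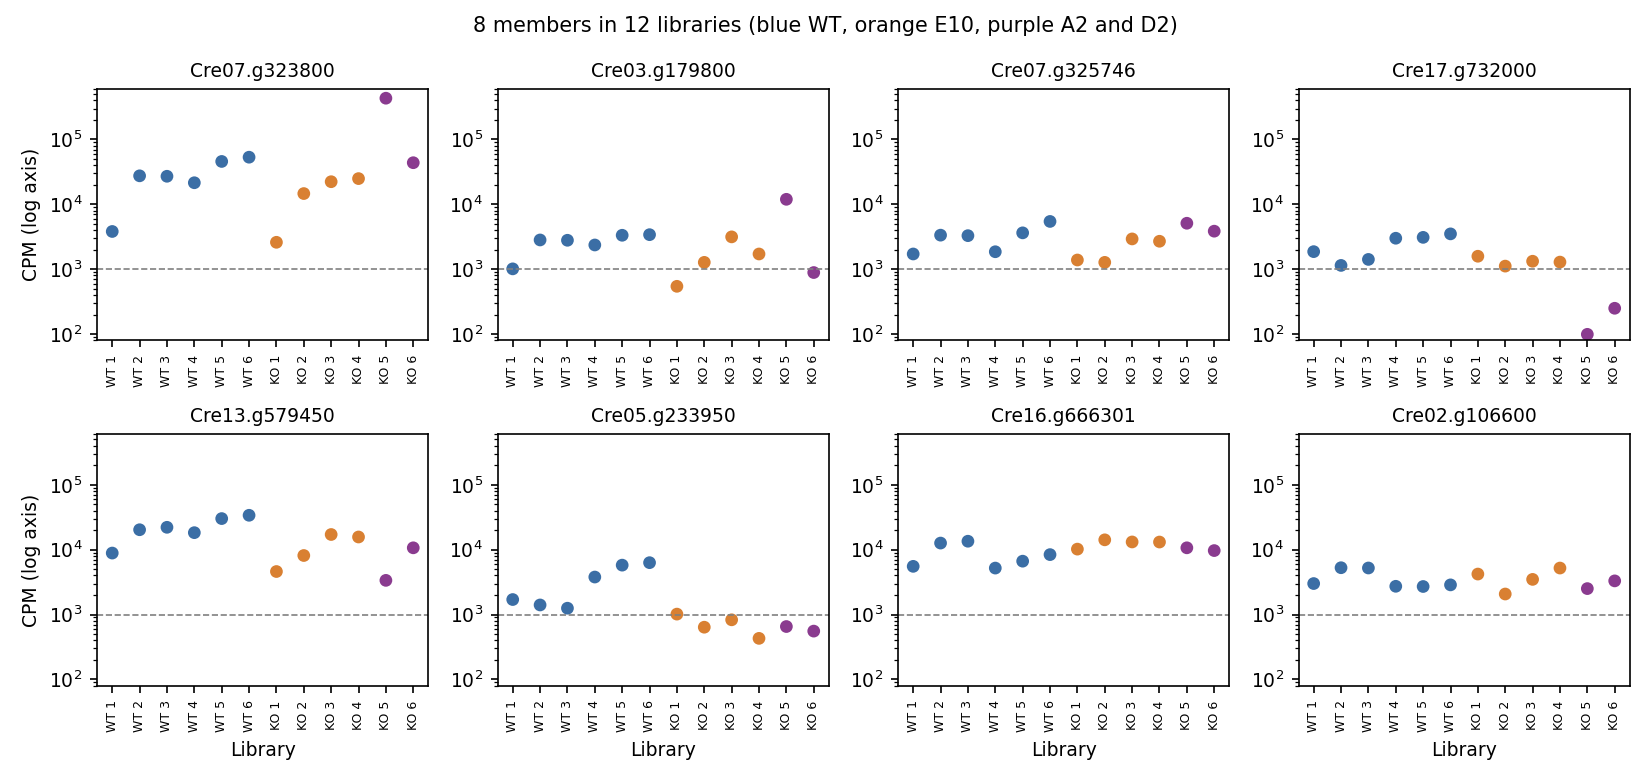
CPM (log axis) of 8 abundant transcripts in the 12 libraries, with the 1000 CPM limit dashed. Cre07.g323800 and Cre03.g179800 peak in A2 at 432689 and 11945 CPM, Cre17.g732000 is lowest in A2 at 98.9 CPM, and Cre16.g666301 never falls below 5199 CPM.

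Most of the 71 were on none of the lists of known functions used here, which hold only a small part of the 17744 identifiers. Lists of identifiers written from general knowledge, whose pairing with functions could not be checked here, held 57 identifiers of light harvesting, the photosystems with electron transport, and the Calvin-Benson cycle, and 7 of them were among the 71 (1 of 21, 4 of 22 and 2 of 14). Of the 57, 44 reached 1000 CPM in at least 1 WT library. Lists of acetate use, chaperones, the cytoskeleton, nitrogen assimilation and translation (6, 5, 5, 2 and 4 identifiers) held none of the 71. These lists are short, so this does not show that such functions are absent from the 71. Identifiers left out by name were not counted among the 71 on any list. The 7 had a median level of 5850.3, 2027 and 1718 CPM in WT 1 to 3 and of 5554, 6066 and 6091 CPM in WT 4 to 6, while the other 64 had 2781, 4095 and 4548 CPM and 2259, 2993 and 3359 CPM. In WT 2 and WT 3 the median of the 7 was below its value in the other WT libraries, and that of the other 64 above. In PDSKO 1 to 4 the median of the 7 was 3413, 1115, 1712 and 1837 CPM, in A2 684 CPM and in D2 1719 CPM. Of the 10 transcripts that fell in A2 and D2 against WT 4 to 6, beside 7.49% of all tested, 4 were among the 7 and 6 among the other 64, and the difference between these groups was not tested.

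The knockout lines were compared with each other, a test that uses no WT level. edgeR called 3 of the 71 between E10 and the pair of A2 and D2, all lower in E10, where 6.37% of the 377 identifiers tested were called lower and 0% higher. Cre07.g323800 stood at 2597, 14652, 22314 and 24925 CPM in E10, below D2 and A2 in every library (log2 fold change -5.65 ± 1.33 SE, edgeR adjusted p = 0.0220). Cre07.g325746 stood at 1385, 1274, 2927 and 2695 CPM in E10, at 5106 CPM in A2 and at 3854 CPM in D2, with no overlap (-2.58 ± 0.66, edgeR adjusted p = 0.0361). Cre03.g179800 stood at 544, 1274, 3148 and 1715 CPM in E10, which lie on both sides of D2 at 887 CPM (-3.71 ± 0.98, edgeR adjusted p = 0.0417).

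None of the 3 was called without A2 or without PDSKO 2. Without A2 the log2 fold change was -2.35 for Cre07.g323800, -1.74 for Cre07.g325746 and 0.030 for Cre03.g179800, with edgeR adjusted p of 0.106, 0.223 and 0.987. With library totals alone, the scale of the CPM values, it was -3.68 for Cre07.g323800 and -1.06 for Cre07.g325746, the latter not called (edgeR adjusted p = 0.430). Over 13 alternatives Cre07.g325746 was called in 5. With library totals alone 1 of the 71 was called higher in E10 and 1 lower, beside 3 and 19 of the 377 identifiers. DESeq2 called 1 higher and 3 lower, beside 10 and 31. RLE scaling called 0 higher and 2 lower, beside 0 and 23. Line, title set and depth go together in this comparison and cannot be told apart. All 4 E10 libraries were above both A2 and D2 for 20 of the 71 and below both for 2, beside 26.8% and 7.69% of all tested. The median log2 fold change of the 71 was -0.39, beside -0.15 over all tested, and turned to 0.66 with library totals alone, when that of all tested was 1.15. The direction of the median thus changed with the scaling, and CPM values use library totals.

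With all 12 libraries together, edgeR called 0 of the 71 in PDSKO against WT, and 0% of the 4915 identifiers tested were called. At an unadjusted p under 0.05 there were 16 of the 71, beside 1006 of the 4915. DESeq2 called 2 of the 71, both lower, and 423 of the 4915. The median log2 fold change of the 71 was -0.65, beside -0.38 over all tested. With RLE scaling it was 0.15, beside 0.29 over all tested. WT levels chose the 71, so the WT side of this comparison is not independent of the choice. The smallest p-values belonged to Cre05.g233950 (log2 fold change -2.68 ± 0.70 SE), Cre13.g579450 (-1.87 ± 0.53) and Cre17.g732000 (-2.18 ± 0.65), with edgeR adjusted p of 0.0811, 0.0864 and 0.0864. In the same order, they were called in 5 of 22, 4 of 23 and 3 of 22 alternatives. DESeq2 called Cre05.g233950 (DESeq2 adjusted p = 0.0169) but not Cre13.g579450 or Cre17.g732000. For Cre05.g233950 the WT libraries ranged from 1251 to 6299.9 CPM with a median of 2742 CPM, and the PDSKO libraries from 429 to 1014 CPM with a median of 645 CPM. These did not overlap in CPM, but PDSKO 2 had 4 reads (Poisson interval 174 to 1631 CPM) and PDSKO 4 had 7 reads. Cre05.g233950 was the 1 transcript of the 71 that reached 1000 CPM in only 1 PDSKO library. Without PDSKO 1, 7 of the 71 were called, all lower, beside 632 of 6777 identifiers, of which 564 were lower. The difference between the E10 effect and the A2 and D2 effect, tested as an interaction, was called for 0 of the 71, beside 0.061% of the 4915 identifiers. At an unadjusted p under 0.05 there were 4 of the 71 and 1039 of the 4915.

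**Figure D5:**
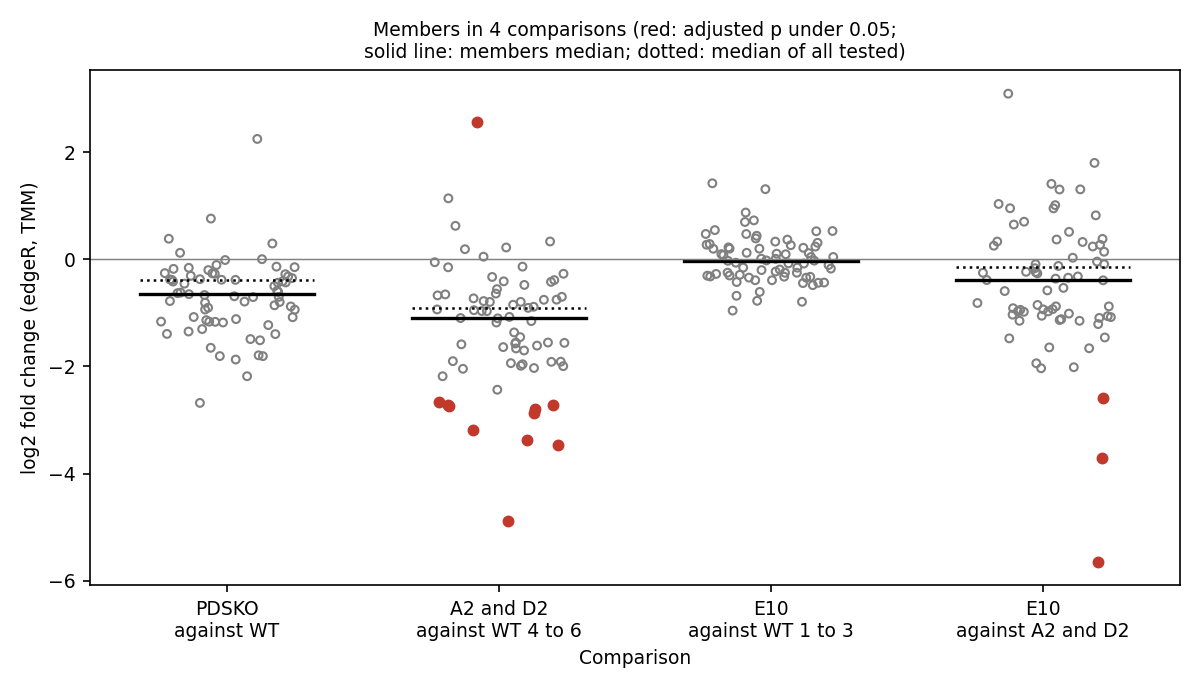
log2 fold changes (edgeR, TMM scaling) of the 71 abundant transcripts in 4 comparisons, with called transcripts in red, the median of the 71 as a solid line and that of all identifiers tested as a dotted line. Called transcripts number 0, 11, 0 and 3 from left to right.

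By their identifiers, 12 of the 71 (16.9%) lie on chromosome 12 and 11 (15.5%) on chromosome 6, which hold 10.0% and 8.97% of all identifiers. No pair of the 71 were neighbours in the gene order of the RefSeq table of assembly v5.5. None of the 71 has more than 1 RefSeq transcript in that table, where 8.63% of identifiers have 2 or more. Reads with several mapping places were discarded by the authors, per the labels' protocols, and the effect of this on which transcripts reach 1000 CPM was not tested.

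Likeness of pattern was measured for the 8 leading transcripts in the same way as for Cre07.g323800. For 7 of the 8 the nearest pair of identifiers were both among the 71. Cre01.g027000 and Cre10.g430400 were closest, with a root mean squared log2 difference of 0.27, as were Cre12.g494050 and Cre02.g101350 (0.27). Cre04.g211800 was nearest to Cre08.g360900 (0.31) and Cre12.g514500 to Cre09.g405106 (0.35). Cre17.g720250 was nearest to Cre12.g550850 (0.57), another transcript low in WT 2 and WT 3. Of the 121 candidates, 67 are among the 71.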

How the data were processed

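CEL-Seq libraries of 6 WT and 6 PDSKO samples were counted. Per the labels' protocols, the authors used BWA MEM on read 2, against transcripts of the v5.6 gene models, kept reads with a single mapping place and deposited raw counts per gene identifier. Whether molecular barcodes were collapsed, and tool versions, are not given in the sources used here. Every deposited column matched 1 sample.

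From the counts, CPM was computed over each column total. Tests used edgeR 4.0.16 (quasi-likelihood, two-sided, filterByExpr, TMM scaling) in R 4.3.3 over all identifiers that passed the filter, with Benjamini-Hochberg adjustment and a threshold of 0.05. SE is the absolute log2 fold change over the square root of F. The scripts were tested on simulated data. All 71 transcripts passed filterByExpr in the 4 comparisons, through WT where WT took part. A stricter filter tried as an alternative (10 counts in every library) kept 69 of them for A2 and D2 against WT 4 to 6 and 43 in the other 3. DESeq2 1.42.0, other scalings, filters, CPM limits, library omissions and a replicate block were alternatives. Wilson and Poisson intervals (95%) cover counting error only.

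The 71 transcripts, the lists and the rule for naming transcripts were chosen with earlier results of these data known. Named were the 8 with the highest WT medians, the 5 most and 5 least even in WT, those nearest the limit, up to 4 called in each direction per comparison (or the 3 smallest p where none was called), and the 8 with the highest minimum over all libraries. Cre17.g738300, Cre13.g570851, Cre01.g010900 and Cre06.g261000 were named after their values were seen. Library numbers were not taken as pairs. All 71 identifiers, and 17742 of 17744, were found in RefSeq's table of genes (assembly v5.5), which gave no symbol for the 71.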

Additional observations from a re-analysis of the deposited data

Results flagged for a closer look

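In 6 of 60 groups of 6 libraries tested, 1 PDSKO library stood apart from the other 5 by the gap to its nearest neighbour (Dixon's 95% limit). Chance gives about 1 in 20 in groups chosen without regard to their values. These were not: they are the named transcripts and the summed share, many named for values in the same libraries, so the count is a description. The groups pool 3 knockout lines of unlike depth.

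PDSKO 5, the single library of A2, held 4 of these values. Cre07.g323800 stood at 432689 CPM, with the next PDSKO library at 43813 CPM. Cre03.g179800 stood at 11945 CPM, with the next at 3148 CPM. Cre06.g278135 was low, at 1050.3 CPM, with the next at 3411 CPM. The 71 transcripts together took 56.7% of its counts.

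PDSKO 1, of line E10, held the other 2. Cre12.g529400 stood at 31809 CPM, with the next at 6933 CPM, and Cre06.g257150 at 7495 CPM, with the next at 3882 CPM.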

How the results depend on the processing

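For PDSKO against WT, where 0 of the 71 were called, DESeq2 called 2, no filter on low counts 24, a fit of 4 groups 4, and leaving out 1 library 0 to 7 (7 without PDSKO 1). The same counts over all identifiers tested were 0, 423, 1257, 162 and 0 to 632, and 164 with RLE scaling. With the library number as a replicate block, 3 of the 71 and 69 of all were called. Same-numbered libraries correlated at -0.26 to 0.56 in their deviations from the group means. Of the 6 WT libraries, 3 correlated best with their own number. These values do not settle whether the numbers pair the libraries.

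For A2 and D2 against WT 4 to 6, where 11 were called, RLE scaling called 7, library totals alone 3, a filter of 10 counts in every library 5 of the 69 it kept, the fit of 4 groups 4, and leaving out 1 library 0 to 34. Over all identifiers 874 were called, and 512 with totals alone, 99 with the stricter filter, 1470 with no filter and 13 to 2486 with 1 library left out. Limits of 500 and 2000 CPM gave 124 and 27 transcripts, of which 28 and 4 were called. Their mean WT share was 41.4% and 19.3%. For E10 against A2 and D2, where 3 were called, the stricter filter called 0 of the 43 it kept, the 2000 CPM limit 1, and leaving out 1 library 0 to 5. Over all identifiers 24 were called, and 0 with the stricter filter, 46 with no filter, 41 with DESeq2, 387 in the fit of 4 groups and 4 to 28 with 1 library left out.

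Some fold changes reversed, and the cause was not tested. The median over all identifiers tested moved as well, so the signs are relative to a moving scale. In A2 and D2 against WT it was -0.92, and -7.58 without PDSKO 5. In E10 against A2 and D2 it was -0.15, and 0.22 without PDSKO 5. In E10 against WT 1 to 3 it was -0.01, and -2.53 without PDSKO 1. There it was also -2.42 with no filter, -8.05 without PDSKO 1 and PDSKO 2, and -0.84 in the fit of 4 groups. Over libraries left out 1 at a time, Cre07.g323800 in A2 and D2 against WT ran from -0.99 (without PDSKO 5) to 3.32, and Cre03.g179800 in E10 against A2 and D2 from -4.78 to 0.030 (without PDSKO 5). In E10 against WT 1 to 3, where nothing was called, the ranges were -0.88 to 1.30 for Cre06.g257150, -0.84 to 0.72 for Cre06.g278135 and -0.95 to 0.85 for Cre12.g504200. With no filter these 3 stood at -0.020, -0.77 and -0.56. Without PDSKO 1 and PDSKO 2, chosen after seeing the data, they stood at -0.94, -0.78 and -0.997. In the fit of 4 groups Cre06.g278135 stood at -0.29 and Cre12.g504200 at -0.12. Other omissions of paired libraries, the share without Cre07.g323800 and the interaction were also chosen after seeing the data. Depth limits PDSKO 2, where 28 of the 71 had fewer than 10 counts.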
